A study of Drosophila melanogaster with 2 samples.

Results

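The ecdysone response genes described here are 9 named genes, EcR, usp, Eip74EF, Eip75B, Eip78C, br, Hr39, Hr4 and ftz-f1, of the 13968 protein-coding genes in the annotation. They were chosen by name, and every Usf-GFP summit from 5 kb upstream to 5 kb downstream of each gene was taken, a stretch called the gene's window below. Usf-GFP is the fly upstream stimulatory factor, a basic helix-loop-helix leucine zipper protein, carrying green fluorescent protein at its C terminus in a stably transgenic line. Its chromatin was precipitated with an antibody to GFP from whole Drosophila melanogaster embryos aged 0 to 16 h, with both sexes pooled, and sequenced in 2 biological replicates numbered 3 and 4, which form 1 group. All embryos carried the fusion, no control library was among the samples, and nothing was treated, so no comparison between conditions was made. The peak lists came from whole embryos over that span of ages, and they cannot tell in which cells, or at what age, a site was bound.

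Ecdysone is the steroid hormone that times moulting and metamorphosis in insects, and a pulse of it also runs through mid-embryogenesis. The hormone binds a dimer of the nuclear receptors EcR and Usp, which switches on a first set of regulators including Eip74EF, an ETS-domain transcription factor, Eip75B, a heme-binding nuclear receptor, and br, a family of BTB zinc-finger proteins. Eip78C, Hr39, Hr4 and ftz-f1 encode further nuclear receptors of the cascade, with ftz-f1 known for making the prepupal animal competent to respond to a later pulse.

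The strict list was thresholded by the authors with the irreproducible discovery rate (IDR), which reads how reproducibly peaks rank between replicates. The list is called IDR here. Each of its peaks recurs unchanged in the relaxed list called on pooled reads. The weakest member summit ranked 2676 in both lists, so down to that rank the strict list follows pooled signal alone. A place in it therefore does not show that a summit itself passed a replicate filter. The strict list held 24 summits in these windows. Of them, 11 lay at Hr4 and 7 at Eip75B. The sequences below are the 6 strongest of the summits with 50 bp to each side, read 5′ to 3′ on the plus strand of the Release 6 genome (dm6), and they are shown because they are the strongest Usf-GFP sites at these genes. The third stretch is cut to the 57 bp that lie outside the annotated untranslated region of Eip75B-RC. Capitals mark runs of 6 or more A or T bases.
Hr4, chrX:1947715-1947815, pooled signal 287.6: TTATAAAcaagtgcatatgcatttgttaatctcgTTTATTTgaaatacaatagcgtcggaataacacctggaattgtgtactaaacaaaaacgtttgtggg
Eip75B, chr3L:18005148-18005248, pooled signal 268.6: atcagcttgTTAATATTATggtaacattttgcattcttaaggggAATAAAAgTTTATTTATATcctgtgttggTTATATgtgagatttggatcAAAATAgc
Eip75B, chr3L:17999822-17999878, pooled signal 231.2: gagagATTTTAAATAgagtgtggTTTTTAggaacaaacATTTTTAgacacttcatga
Hr4, chrX:2009604-2009704, pooled signal 228.1: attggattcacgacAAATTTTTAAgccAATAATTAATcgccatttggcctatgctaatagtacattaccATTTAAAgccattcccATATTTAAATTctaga
Hr4, chrX:1951857-1951957, pooled signal 209.5: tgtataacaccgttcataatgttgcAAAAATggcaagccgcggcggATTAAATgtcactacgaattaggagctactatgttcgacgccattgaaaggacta
Hr4, chrX:1948717-1948817, pooled signal 187.1: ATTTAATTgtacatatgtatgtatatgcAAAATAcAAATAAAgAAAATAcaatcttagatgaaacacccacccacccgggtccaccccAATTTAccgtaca

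All 6 stretches held A/T runs, with the longest in each between 7 and 11 bases. None of the 6 held CACGTG, the E-box that vertebrate Usf proteins are known to bind, and neither did any of the 24 summits within 100 bp, against 68 of 2743 other IDR summits (2.48%). A count of 0 of 24 allows a share of up to 12.5%, so a difference was not detectable with this number. Both stretches below, from weaker summits, carry 2 copies each of the hexamer GGCGCC, here in capitals. Both the stretches and the hexamer were picked after the letters had been read.
Hr4, chrX:1953057-1953157, pooled signal 101.3: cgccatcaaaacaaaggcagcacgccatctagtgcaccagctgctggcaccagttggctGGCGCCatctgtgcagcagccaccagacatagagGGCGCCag
Eip75B, chr3L:18019775-18019875, pooled signal 73.29: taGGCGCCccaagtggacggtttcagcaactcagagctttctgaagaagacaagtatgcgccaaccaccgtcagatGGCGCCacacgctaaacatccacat

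These 2 were the most GC-rich of the 24, at 61.4% GC for the Hr4 stretch and 53.5% GC for the Eip75B stretch. GGCGCC was present within 100 bp at 2 of the 24 member summits (8.33%), against 93 of 2743 other IDR summits (3.39%). The hexamer was picked from these stretches, so the member share follows from that choice and cannot be read as a difference. The motifs that follow were set beforehand. Within 100 bp, on both strands, AGGTCA, the core of nuclear receptor sites, occurred at 1 of 24 member summits (4.17%) and 3.97% of the others. GAGAGA, bound by GAGA factor, occurred at 3 of 24 (12.5%) and 10.1%. TATCGA, the core shared by DREF and BEAF sites, occurred at 4 of 24 (16.7%) and 12.1%. The GAGAGA in the third sequence above starts 6 bp before its summit on the plus strand. Median GC content with 50 bp to each side was 35.6% at member summits and 32.7% at the others, and the median longest A/T run was 9.50 and 10.0 bases. A match is a description of the letters and was not tested for occupancy.

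Of the 9 genes, 6 had an IDR summit in their window (66.7%, 95% Wilson interval 35.4 to 87.9%), against 4948 of 13968 coding genes (35.4%). Long genes offer more room, and 8 of the 9 are 20 kb or longer. Of those 8, 5 had an IDR summit, against 495 of 1020 coding genes of that length (48.5%). The 3 genes without one were Eip78C, Hr39 and ftz-f1. All 9 had a summit in the relaxed list called on pooled reads, which 88.0% of coding genes also had, so that count does not set them apart.

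**Figure D1:**
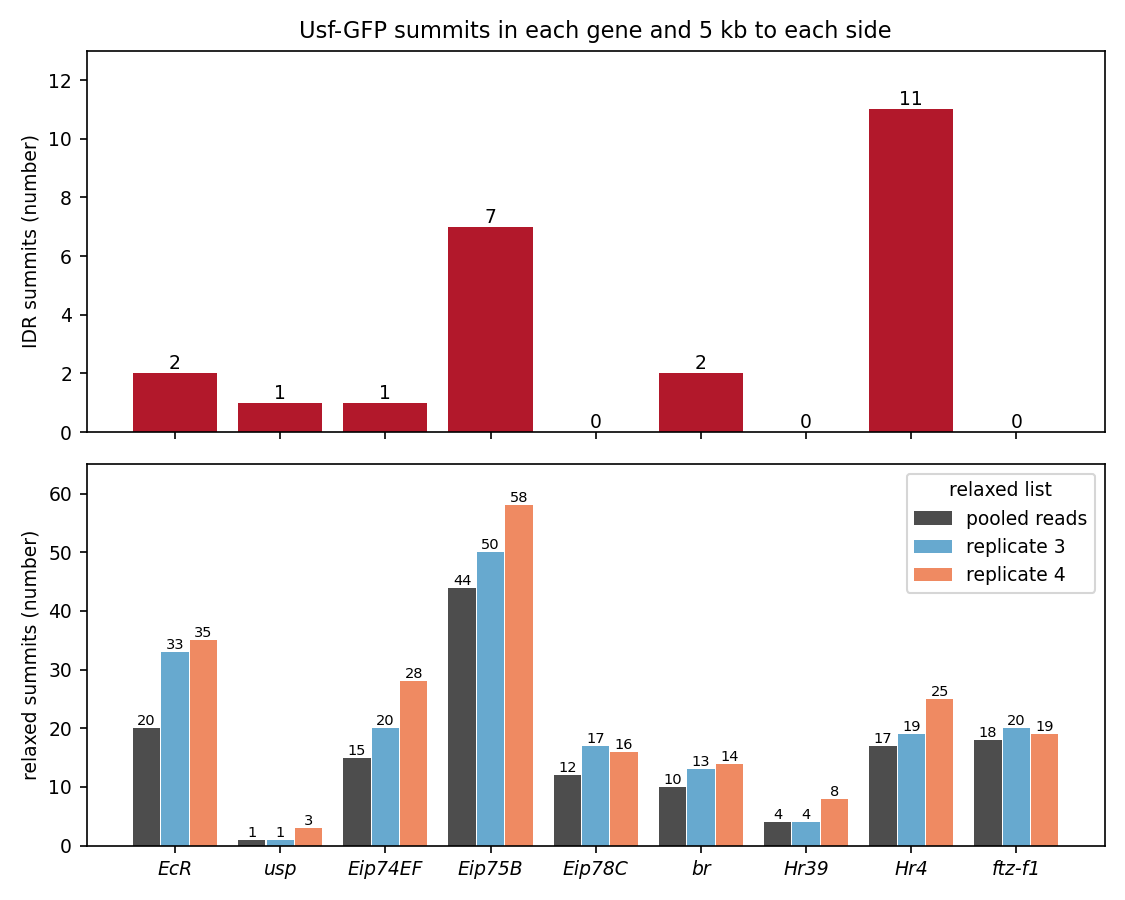
Number of Usf-GFP summits in the window of each ecdysone response gene (the gene and 5 kb to each side), in the IDR list (upper bars) and in the relaxed lists of the pooled reads, replicate 3 and replicate 4 (lower bars). Hr4 with 11 and Eip75B with 7 hold 18 of the 24 IDR summits, while Eip78C, Hr39 and ftz-f1 have none.

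The pooled relaxed list held 141 summits in the 9 windows, the replicate 3 list 177 and the replicate 4 list 206. The density of IDR summits was 0.388 per 10 kb over the member windows and 0.232 per 10 kb over all coding gene windows joined. Without Hr4 and Eip75B the other 7 windows had 0.143 per 10 kb, below the value over all coding genes. The pooled density was 2.28 per 10 kb in member windows and 1.70 per 10 kb over all coding gene windows. Hr4 and Eip75B therefore set the higher IDR density of the group.

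The authors' signal, column 7 of each list, ran from 73.29 to 287.6 over the 24 member summits, with a median of 133.3. Over all 2767 IDR peaks it ran from 71.33 to 1798, with a median of 118.9. The scaling of this signal is not given in the sources used here, so signals were read only within a list, and replicates were set side by side by rank (1 is the strongest) in lists of 28459 peaks for replicate 3 and 29246 for replicate 4. Ranks in the pooled list, of 21315 peaks, are given for each summit below. Of the 24 summits, 13 were at or above the IDR median.

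**Figure D2:**
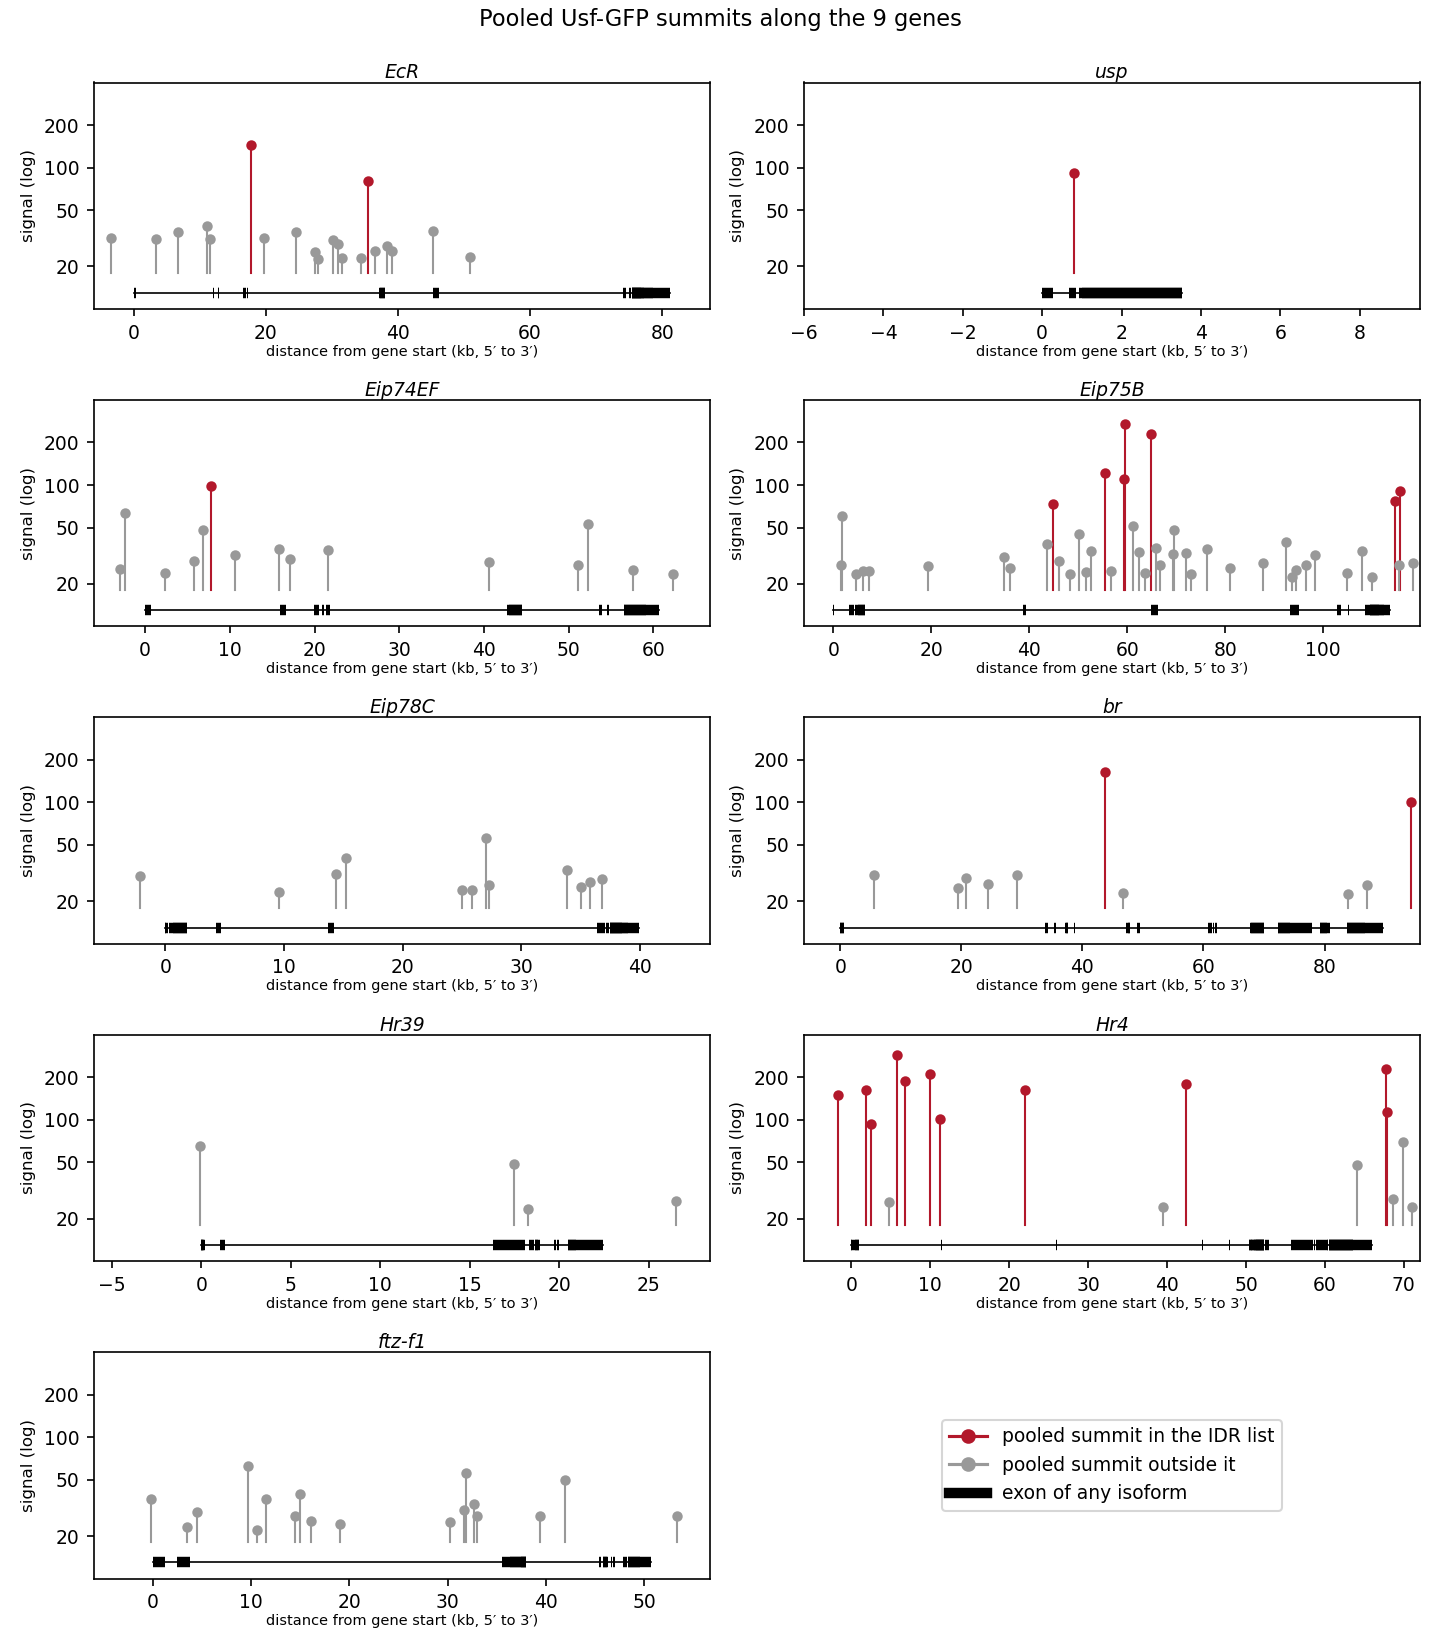
Pooled Usf-GFP summits along the 9 genes, with distance from the gene's first start site in kb (5′ to 3′) on the horizontal axis and the authors' pooled signal on a log vertical axis. Red stems are summits in the IDR list, grey stems are the other pooled summits, and black boxes are exons of any isoform. The Hr4 summits crowd at its 5′ end, and those of Eip75B fall into 5 in the middle of the gene and 2 past its 3′ end.

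The receptor genes had 2 IDR summits at EcR and 1 at usp, fewer than Hr4 and Eip75B. EcR, which encodes the hormone-binding subunit (FBgn0000546, chr2R:6087873-6169087, minus strand, dm6), held 2 IDR summits, 20 pooled summits, 33 in replicate 3 and 35 in replicate 4. The stronger, at position 6151327, had a pooled signal of 145.7 and rank 1009, with rank 921 in replicate 3 and rank 1171 in replicate 4. The weaker, at 6133688, had a pooled signal of 80.11 and rank 2388, with rank 3735 in replicate 3 and rank 2487 in replicate 4. Both sat in the same 56758 bp intron of EcR-RA, EcR-RD and EcR-RE. The second lay 1766 bp upstream of the start site of EcR-RB and EcR-RC, so none of the 3 EcR promoters had an IDR summit within 500 bp. A tRNA:Asn-GTT-1-1 gene starts 1349 bp from the stronger summit, nearer than any EcR start.

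Outside the IDR list EcR had 18 pooled summits with signals of 22.55 to 38.44. The highest of these, at 6158025, ranked 6285, with rank 7474 in replicate 3 and rank 8200 in replicate 4. The next, at 6123779, had a pooled signal of 35.57 and rank 7267. The third, at 6144499, had a pooled signal of 35.31, rank 3253 in replicate 3 and no summit within 100 bp in replicate 4. The EcR-RD and EcR-RE promoter had a pooled summit within 500 bp, 422 bp from the start, at a signal of 31.18.

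The partner gene usp (FBgn0003964, chrX:2038798-2042311, minus strand), at 3514 bp the shortest of the 9, had 1 summit in its window, the same in the IDR and pooled lists. It lay at 2041502 with a pooled signal of 92.21 and rank 1974. Its signal was 44.50 at rank 2383 in replicate 3 and 36.89 at rank 2529 in replicate 4. The replicates placed it at nearly the same rank. This was the only IDR summit of the group in an exon: it fell in the 5′ untranslated region of usp-RB, 809 bp from the start of that isoform and 190 bp upstream of the start of usp-RA. The start of CG4313, which is outside the naming rule and is given because it is close, lies 366 bp away.

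Among the early regulators, Eip74EF (FBgn0000567, chr3L:17558672-17619325, minus strand) had 1 IDR summit at 17611553, with a pooled signal of 98.67 and rank 1807. The nearest summit had a signal of 62.41 at rank 1496 in replicate 3 and of 36.79 at rank 2542 in replicate 4. Replicate 4 also had a stronger summit at 17611314, more than 100 bp away, with a signal of 52.91 at rank 1497. The peak of that summit overlaps the IDR peak, so the replicates need not differ at this site. The IDR summit lay in the 15267 bp first intron of Eip74EF-RA, Eip74EF-RC and Eip74EF-RE, 7772 bp downstream of their shared start. The other pooled summits numbered 14, with signals of 23.48 to 62.98. The highest of these, at 17621672, was 2347 bp upstream of the gene, and another gene starts 47 bp from it. Those at 17567105 and 17612456 had pooled signals of 53.36 and 48.07 and lay in introns. None of the 3 Eip74EF promoters had a pooled summit within 500 bp.

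Eip75B (FBgn0000568, chr3L:17950953-18064696, minus strand) is the longest of the 9 at 113744 bp and has 7 promoters. It had 7 IDR summits, 44 pooled summits, 50 in replicate 3 and 58 in replicate 4. Only 10 coding genes had more IDR summits, and only 69 coding genes are longer. The median IDR count over coding genes was 0, at a median gene length of 2164 bp. Inside the gene were 5 of the 7, within 19997 bp of each other. All 5 were in introns of Eip75B-RB, Eip75B-RE, Eip75B-RF and Eip75B-RG. The longest of these introns is 65240 bp, and that of Eip75B-RG is shorter because this isoform starts at 18026032.

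The strongest Eip75B summit, at 18005198, had a pooled signal of 268.6 and rank 329, with a signal of 131.8 in replicate 3 and of 137.4 (rank 264) in replicate 4. The second, at 17999828, had a pooled signal of 231.2 and rank 435, and both replicates gave it rank 453. It lay 7 bp upstream of the start of Eip75B-RC, inside introns of Eip75B-RB, Eip75B-RE, Eip75B-RF and Eip75B-RG. This was the one Eip75B promoter of 7 with an IDR summit within 500 bp. The summit at 18009170 had a pooled signal of 121.0, rank 1089 in replicate 3 and rank 1956 in replicate 4. The summit at 18005402, only 204 bp from the strongest, had a pooled signal of 111.1, rank 2419 in replicate 3 and rank 1430 in replicate 4. These pairs of ranks ran in opposite directions, so neither replicate was the stronger throughout.

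The last intronic summit of Eip75B, at 18019825, was the weakest of the 24, with a pooled signal of 73.29, rank 3174 in replicate 3 and rank 2689 in replicate 4. Past the 3′ end of the gene were 2 more. That at 17948904 was 2049 bp downstream, with a pooled signal of 91.09, rank 1966 in replicate 3 and rank 1795 in replicate 4. That at 17949919 was 1034 bp downstream, with a pooled signal of 77.32, rank 3445 in replicate 3 and rank 1993 in replicate 4. Both were nearer to the start of lncRNA:CR45393, at 1204 and 2219 bp, than to any Eip75B start. The strongest Eip75B summits outside the IDR list lay at 18062984, 18003502 and 17995052, with pooled signals of 60.01, 51.38 and 47.70. The first of these had rank 3933 in replicate 3 and no summit within 100 bp in replicate 4. A replicate 4 summit with a signal of 30.95 at rank 3221 lay close by, matched to the neighbouring pooled summit at 18063184.

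The gene br (FBgn0283451, chrX:1575132-1664869, plus strand) has 16 isoforms and 7 promoters, and had 2 IDR, 10 pooled, 13 replicate 3 and 14 replicate 4 summits. The stronger IDR summit, at 1618879, had a pooled signal of 165.4 and rank 801, with rank 1002 in replicate 3 and rank 736 in replicate 4. It lay in an intron of 14 of the 16 isoforms, 3429 bp upstream of the start of br-RS. The start of Mur2B, which lies within the br gene, was nearer, at 724 bp. The other, at 1669392, had a pooled signal of 100.1, rank 1957 in replicate 3 and rank 1900 in replicate 4. It was 4523 bp downstream of br and 95 bp from the start of CG3740. Neither br summit was thus nearest to a br promoter, and its pooled summits outside the IDR list reached a signal of 30.90, lower than for any other member that had such summits.

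Hr4 (FBgn0264562, chrX:1941940-2007956, plus strand), a nuclear receptor known in the larval prothoracic gland for limiting ecdysone synthesis, had 11 IDR, 17 pooled, 19 replicate 3 and 25 replicate 4 summits. Only 2 coding genes had more IDR summits, of up to 12, although 189 coding genes are longer. The density was 1.45 IDR summits per 10 kb of its window, the highest of the 9, followed by usp at 0.740 and Eip75B at 0.566. The signal of 8 of the 11 was at or above the median of all IDR peaks.

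Within Hr4, 6 summits lay in a 10387 bp intron near the 5′ end, spread over 9276 bp. All 7 isoforms that start at the distal promoter have this intron, and it is the first intron of only some of them. The strongest of all 24, at 1947765, was 5825 bp downstream of that promoter, with a pooled signal of 287.6 and rank 279. Replicate 3 gave it a signal of 155.1 at rank 283 and replicate 4 a signal of 132.8 at rank 281. The summit at 1951907 had a pooled signal of 209.5, rank 490 in replicate 3 and rank 630 in replicate 4. These ranks were close. The summit at 1948767 had a pooled signal of 187.1, rank 793 in replicate 3 and rank 561 in replicate 4. That at 1943831 had a pooled signal of 162.4, rank 636 in replicate 3 and rank 1072 in replicate 4. The same intron also held the summits at 1953107, with a pooled signal of 101.3, and at 1944413, with a pooled signal of 93.45. The summit at 1944413 carried the only AGGTCA of the 24, 76 bp past the summit.

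Further along Hr4, the summit at 1963922 lay in a further intron of 14429 bp, with a pooled signal of 161.9, rank 829 in replicate 3 and rank 888 in replicate 4. The summit at 1984329 had a pooled signal of 180.3, rank 747 in replicate 3 and rank 701 in replicate 4, and was 7971 bp upstream of the proximal promoter of Hr4-RE and Hr4-RF. All 8 summits inside Hr4 were in introns, and none of the 11 was within 1 kb of either Hr4 start site. The pseudogene CR46447 lies inside Hr4, and its start was nearer than any Hr4 start for 4 of these summits, at 1373 to 9442 bp.

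The other 3 Hr4 summits lay outside the gene, next to neighbours. The one at 1940181, 1759 bp upstream, had a pooled signal of 149.9, rank 1022 in replicate 3 and rank 1073 in replicate 4, and was 126 bp from the start of CG3587. The one at 2009654, 1698 bp downstream, had a pooled signal of 228.1, rank 506 in replicate 3 and rank 438 in replicate 4, and was 290 bp from the start of PIG-K. Its neighbour at 2009866 had a pooled signal of 113.2, rank 1406 in replicate 3 and rank 3431 in replicate 4, the widest rank ratio of the 24 at 2.44, and was 91 bp from the start of lncRNA:CR45478. The distances place these 3 nearer to other genes than to Hr4. Of the Hr4 summits outside the IDR list, the highest, at 2011869 with a pooled signal of 69.84 and rank 2841, lay just below the signal of the IDR list, 439 bp from another gene's start. The next were at 2006042 with 48.08 and at 2010533 with 27.51.

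**Figure D3:**
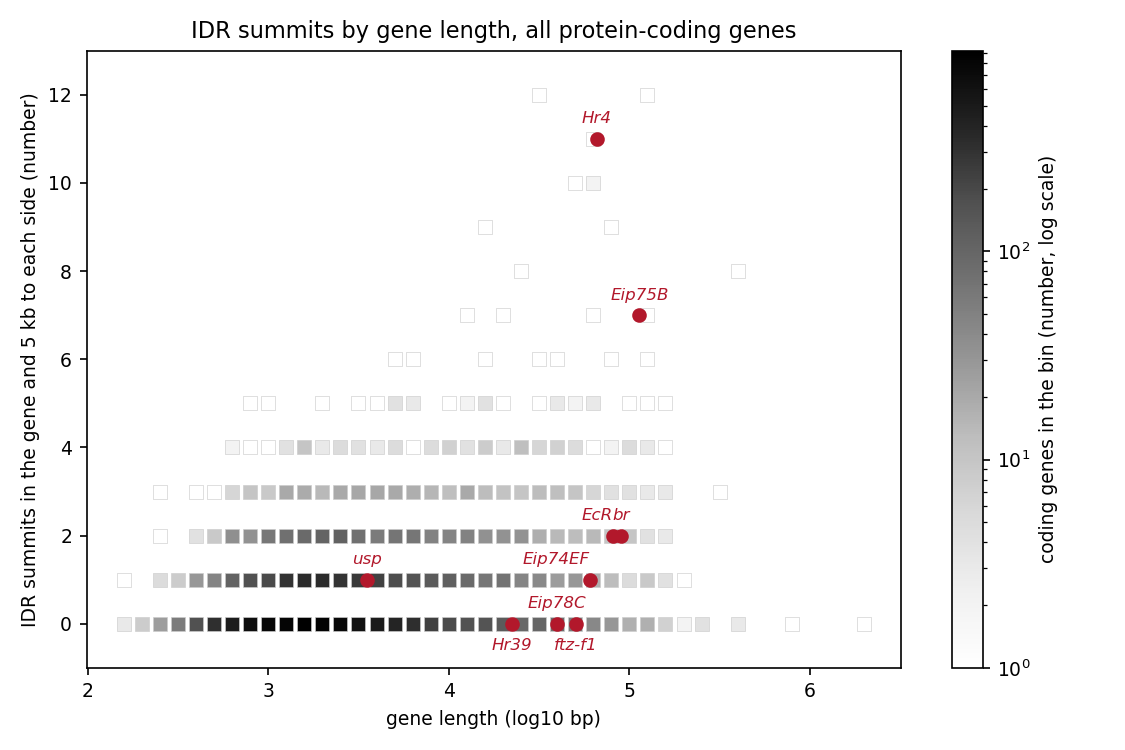
Number of IDR summits in each coding gene's window against gene length in bp on a log10 scale, with grey squares shaded by the number of coding genes in the bin and red points for the 9 ecdysone response genes. Hr4 with 11 summits is near the top of the plot and Eip75B with 7 below it, while the other members, at 0 to 2, lie among most genes of their length.

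The remaining nuclear receptor genes had no IDR summit. Hr39 (FBgn0261239, chr2L:21237250-21259675, plus strand) had 4 pooled, 4 replicate 3 and 8 replicate 4 summits. Its highest pooled summit, at 21237140, was 110 bp upstream of its only promoter, with a pooled signal of 64.88 and rank 3121. By the nearest summit within 100 bp, the replicates differed widely there. The signal was 17.87 at rank 12932 in replicate 3 and 42.21 at rank 2100 in replicate 4. The next, at 21254702 in a coding exon, had a pooled signal of 48.79, with rank 4140 in replicate 3 and rank 9531 in replicate 4. The third, at 21263798, had a pooled signal of 26.53 and no match in either replicate.

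Eip78C (FBgn0004865, chr3L:21226609-21266503, plus strand) had 12 pooled, 17 replicate 3 and 16 replicate 4 summits, with pooled signals of 23.21 to 56.24. The highest, at 21253632 in a 31685 bp intron, ranked 3695 in the pooled list, 15652 in replicate 3 and 2545 in replicate 4. The next, at 21241814 with a pooled signal of 40.67, ranked 3415 in replicate 4 and had no match in replicate 3. By the nearest summit within 100 bp, the first ranked better in replicate 4 and the second was found only there. Overlapping peaks farther away were not examined for these summits. The third, at 21260483, had a pooled signal of 33.47, rank 22434 in replicate 3 and rank 10453 in replicate 4. None of the 3 Eip78C promoters had a pooled summit within 500 bp.

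The competence factor gene ftz-f1 (FBgn0001078, chr3L:18750607-18801309, minus strand) had 18 pooled, 20 replicate 3 and 19 replicate 4 summits, with pooled signals of 22.18 to 62.84. The highest, at 18791635 in the 33674 bp intron of ftz-f1-RB, ranked 3251 in the pooled list, 3526 in replicate 3 and 3569 in replicate 4. These ranks were alike in the replicates, and the pooled signal of 62.84 was below the lowest signal of the strict list, 71.33. The second, at 18769410 with a pooled signal of 56.13, ranked 2619 in replicate 3 and 23730 in replicate 4. The third, at 18759361 with a pooled signal of 50.09, ranked 5522 in replicate 3 and 5759 in replicate 4. The ftz-f1-RB promoter had a pooled summit 227 bp upstream, with a signal of 36.52.

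Across the 9 genes, IDR summits were mostly away from promoters. Of the 24, 18 were inside the gene, 1 was upstream and 5 were downstream. The farthest from its gene was the br summit at 4523 bp, and the nearest one left out by the 5 kb limit was 7967 bp from usp, with a signal of 419.9. Of the 31 alternative promoters, 2 had an IDR summit within 500 bp (6.45%, interval 1.79 to 20.7%), against 11.4% of coding gene promoters. With pooled summits the counts were 7 of 31 (22.6%, interval 11.4 to 39.8%) and 33.9%. By gene, 2 of 9, usp and Eip75B, had an IDR summit no more than 1 kb from an own start site (22.2%, interval 6.32 to 54.7%), against 15.3% of coding genes. These intervals include the shares over all coding genes.

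Within 1 kb of the start site of any gene lay 7 of the 24 summits (29.2%, interval 14.9 to 49.2%), against 1775 of 2743 other IDR summits (64.7%, interval 62.9 to 66.5%). Among IDR summits at other coding genes of 20 kb or more the share was 50.5% (interval 47.4 to 53.6%). The median distance to any start site was 2055 bp for member summits, 971.0 bp for those other long genes and 395.0 bp for all other IDR summits. The difference was not tested, and 18 of the 24 summits come from 2 genes. For 12 of the 24 another gene's start was nearer than any start of the member, and 4 of the 24 had the start of another coding gene within 500 bp, namely CG4313 near usp, CG3740 near br, and CG3587 and PIG-K near Hr4.

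Introns held 17 of the 24 summits (70.8%, interval 50.8 to 85.1%), against 45.2% of the other IDR summits (interval 43.4 to 47.1%). At other coding genes of 20 kb or more introns held 71.8% (interval 68.9 to 74.5%), close to the share at the members. Intergenic summits were 6 of 24 (25.0%) and 43.5% of the others, and no member summit was in a coding exon, against 0.328% of the others. In the pooled list introns held 106 of 141 member summits (75.2%), against 44.9% of all pooled summits, and coding exons held 13 (9.22%) against 13.2%. These pooled shares were not compared with other long genes, although 8 of the 9 members are 20 kb or longer.

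**Figure D4:**
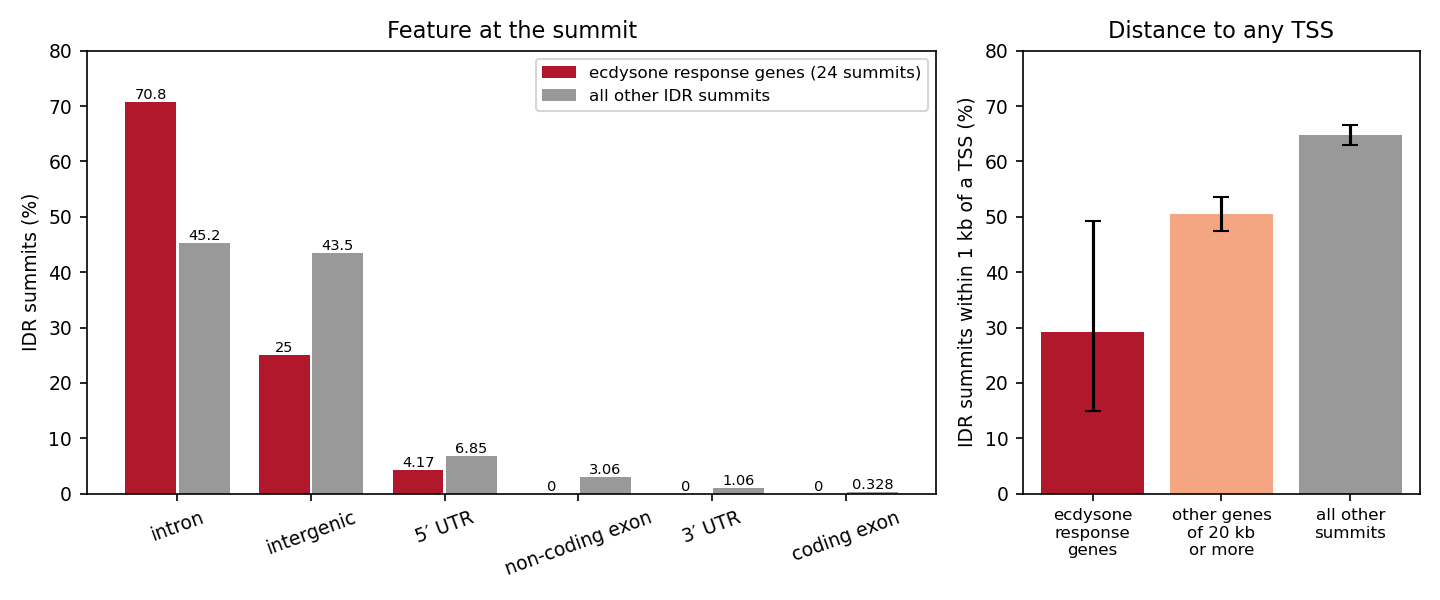
Left, share of IDR summits in each annotated feature, in percent, for the 24 summits at the ecdysone response genes (red) and the 2743 others (grey). Right, share of IDR summits within 1 kb of any transcription start site (TSS), in percent with 95% Wilson intervals, for the ecdysone response genes, other coding genes of 20 kb or more, and all other IDR summits: 29.2%, 50.5% and 64.7%.

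The IDR list was thresholded on the replicates' ranks and its peaks come from their pooled reads. A match between replicates at its summits is thus not independent of the list. All 24 IDR summits had a summit within 100 bp in both replicate lists. In the whole pooled list 7102 of 21315 summits did, and 4487 of these were outside the 2767 IDR peaks. Most IDR peaks therefore did so too. In both replicates 20 of 24 ranked within the first 2767, with 21 in replicate 3 and 23 in replicate 4. The larger rank was a median of 1.23 times the smaller, and 8 of 24 exceeded 1.5 times. These ranks are of the nearest summit within 100 bp, and a stronger overlapping peak farther away was not used. At Eip74EF such a peak had rank 1497 in replicate 4, and at the weaker EcR summit rank 3191 in replicate 3. Split peaks can thus raise the ratio. Replicate 3 gave the better rank for 10 and replicate 4 for 13. None of these rank counts and ratios was computed over all IDR peaks. Of the 117 pooled member summits outside the IDR list, 30 were found in both replicates (25.6%, interval 18.6 to 34.2%), against 24.2% of all such pooled summits. Their signal ran from 22.18 to 69.84 with a median of 28.12. Over all 141 pooled member summits the share was 38.3%, against 33.3% of the whole list, and 18 were found in neither replicate. The share found in neither was not computed for the whole list.

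**Figure D5:**
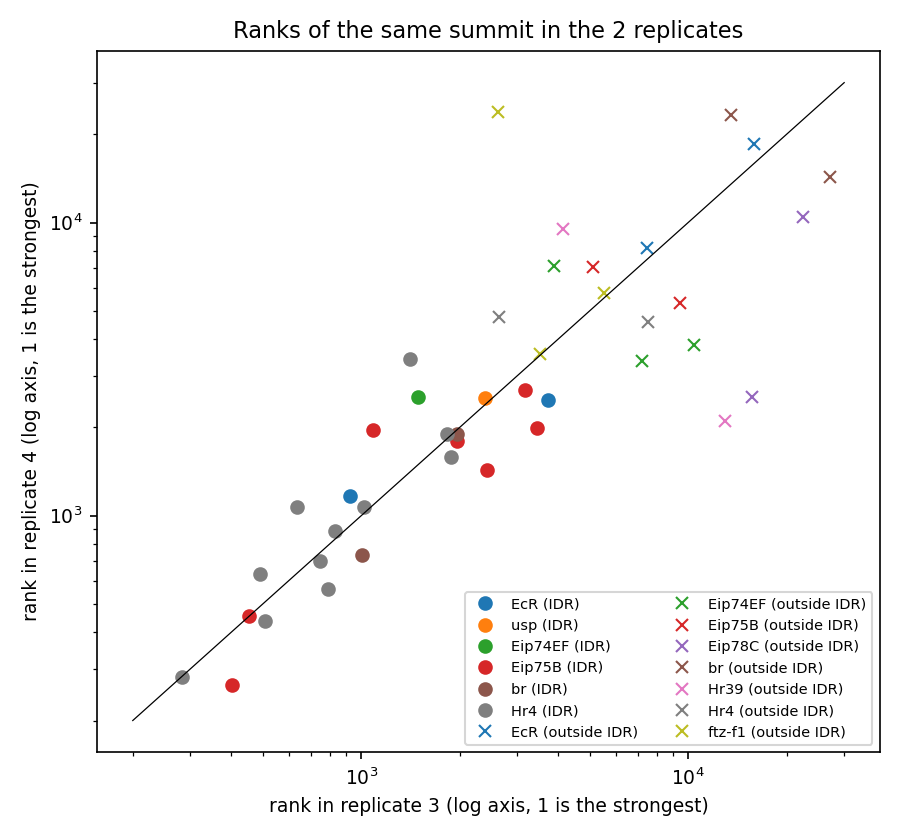
Rank in replicate 3 (horizontal) against rank in replicate 4 (vertical), both on log axes with 1 the strongest, for the 24 IDR summits (dots) and for the strongest 3 pooled summits per gene outside the IDR list that were found in both replicates (crosses). The line marks equal ranks. The dots lie near the line, the farthest at a ratio of 2.44, and the crosses scatter more widely.

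Some IDR peaks were narrower than the usual 396 bp, down to 100 bp: 9 of the 24 (37.5%, interval 21.2 to 57.3%), against 31.8% of the others. Of these, 6 were at Hr4 and 3 at Eip75B. The closest Hr4 summits were 212 bp apart. Counting summits within 500 bp once, a choice made after seeing the data, left 22 of the 24.

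Other genes of the ecdysone pathway were taken from 4 lists. Among the genes for making and clearing the hormone, 1 of 14 (7.14%) had an IDR summit no more than 1 kb from a start site, against 15.3% of coding genes. This was shd, which encodes the enzyme of the last step to the active hormone, with a signal of 140.3. Within 5 kb of the gene 4 of 14 had one (28.6%), against 35.4%. Among other ecdysone-induced genes 5 of 22 had a summit at a start site (22.7%, against 15.3%), and 15 of 22 in the window (68.2%, against 35.4%). The 5 were E23, an ABC transporter gene, with a signal of 572.9 at rank 60, ImpL3, encoding lactate dehydrogenase, with 261.1, Eip63F-1, encoding a calcium-binding protein, with 172.2, hid, a cell death gene, with 146.2, and Blimp-1, a transcriptional repressor gene, with 87.18.

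Among receptor cofactors, chaperones and the hormone importer, 4 of 11 (36.4%) had a summit at a start site, against 15.3% of coding genes, and 8 of 11 (72.7%) in the window, against 35.4%. The 4 were gce, a juvenile hormone receptor gene, with a signal of 414.8, Hsc70-4 with 191.3 and Hsp83 with 148.8, both chaperone genes, and tai, an EcR coactivator gene, with 110.4. Among other nuclear receptors 4 of 12 (33.3%) had a summit at a start site, against the same 15.3%, and 7 of 12 (58.3%) in the window, against 35.4%. They were ERR with a signal of 262.3, Hr96 with 227.5, Hnf4 with 133.3 and Hr78 with 125.4. The shares at start sites differed from list to list, each rests on few genes, and no test was made. The window shares were not matched for gene length. Some listed genes are longer than 20 kb, and 48.5% of coding genes of 20 kb or more had a summit in the window. Of the summits at start sites of these listed genes, that of E23 had the highest signal. Its 572.9 was above every summit in the windows of the 9 genes, whose highest was 287.6 at Hr4. Hr3, another ecdysone-induced gene outside the naming rule, had a stronger summit in its window but away from its start sites, with a signal of 752.3 at rank 33.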

How the data were processed

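Usf-GFP ChIP-seq peak lists of 2 replicates were used as deposited on dm6. The authors called relaxed lists per replicate and on pooled reads, and an IDR list, per the deposited sample notes, which name the same control alignment for both replicates. Aligner, peak caller, IDR threshold and read depth were not given in the sources used here. A deposited peak carries the authors' signal and a summit; the signal's scaling is unstated. The 2767 IDR peaks recur unchanged in the pooled list.

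Summits were joined to Ensembl release 115 (FlyBase 6.54) and the RefSeq Release 6 genome with Python 3.11.15, numpy 2.4.6 and scipy 1.17.1. Coordinates count from 1. As a check, 30565 of 30618 annotated start codons read ATG. Summits matched within 100 bp. Start sites within 200 bp formed 1 promoter. At a summit, coding exons took precedence over untranslated regions, non-coding exons and introns. Windows, features and distances were tested on simulated data. Of the list symbols, 6 matched through an older symbol.

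The members and gene lists were chosen with earlier results of these data known. The naming rule took every member, all its IDR summits, its 3 strongest other pooled summits, genes starting nearer to an IDR summit than the member, and list genes with an IDR summit within 1 kb of a start site. Intervals are 95% Wilson intervals and cover counting error over peaks or genes only. The 2 replicates are the only measure of spread, and no significance test was made. The dm3 lists were not used here.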

Additional observations from a re-analysis of the deposited data

How the results depend on the processing

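The count of members with an IDR summit was 6 with flanks of 2 kb and of 10 kb and 4 in the stronger part of the IDR list (its first 1384 peaks). With that part the IDR summits at members numbered 13 in place of 24, those in introns 11 in place of 17 (a setting added after seeing the data), and the members with a summit within 1 kb of an own start 1 in place of 2. Widening that distance to 2 kb gave 4, adding EcR and Hr4. Leaving out Hr4 and Eip75B, a choice made after seeing the data, left 6 IDR summits. The stronger part of the pooled list held 74 member summits in place of 141. AGGTCA was found at 0 summits within 50 bp and at 4 within 200 bp, in place of 1 within 100 bp, and TATCGA at 0 within 50 bp, in place of 4.

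Leaving out 1 replicate, with the first 2767 peaks of the other in place of the IDR list, gave 7 to 8 members with a summit, 23 to 27 summits and 2 to 3 members with one within 1 kb of an own start. Without replicate 3, Hr39 and Eip78C gained a summit, and without replicate 4, ftz-f1 did. The relaxed count was then 177 to 206. Matching replicates within 50 bp or 200 bp, or by peak overlap, gave 44, 65 and 77 pooled summits found in both, in place of 54. In all, 31 recomputed values differed from the main value by a factor of at most 1.5 and 9 moved further. All 9 came from a shorter list, fewer genes, or a changed distance or motif window. Each such setting can move a count in 1 direction only, so that direction was fixed beforehand. Why the counts moved as far as they did was not tested. No paired analysis was possible because there is 1 group. Read depth is unknown, so how depth limits the relaxed lists was not tested.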
